A study of Mus musculus with 60 samples.

Results

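The loci of 3 MEF2 transcription factor genes, Mef2a, Mef2c and Mef2d, were examined in 12 lists of histone modification peaks from hippocampal neurons of young mice. A peak belonged to the set if its assigned gene was one of the 3, or if it lay in the 2.2 Mb around Mef2c on chromosome 13 (83 to 85.2 Mb, mm10), whatever gene it was assigned to. The set held 427 of the 256375 peaks in all lists, of which 422 were H4K8ac peaks and 5 were H3K27me3 peaks. Of these, 16 were assigned to Mef2a, 87 to Mef2c and 21 to Mef2d, and 390 lay in the window, including 303 assigned to genes other than the MEF2 genes. The genes and the window were chosen from the readout, by the peaks these same lists hold at them, so their values are given as a description with no test.

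MEF2 proteins are MADS-box transcription factors that bind an AT-rich motif. In neurons they are held inactive by class IIa histone deacetylases, and calcium entry during activity releases them through calcineurin and calcium-dependent kinases. In the hippocampus and cortex, MEF2 factors are known for controlling synapse number in response to activity, and MEF2C is required for normal cortical and hippocampal circuits, with loss of 1 copy causing a neurodevelopmental disorder in humans.

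CUT&RUN-seq, in which an antibody directs the release of DNA from isolated nuclei, was performed for H4K8ac, an acetylation of active chromatin, for H3K27me3, a methylation placed by Polycomb at repressed genes, and with IgG as a control. All groups were male Emx1-NuTRAP mice, in which Emx1-IRES-Cre switches on tags on nuclei and ribosomes in the Emx1 lineage, which is mainly excitatory forebrain neurons. Mice were housed in pairs, and the exercised group (early-life exercise, ELE) could run on a wheel in the cage between postnatal days 21 and 41, while the sedentary group lived in cages without one. Per the methods, hippocampi of both groups were collected on the day after this period. Nuclei came from both hippocampi of a mouse by simultaneous isolation with RNA (SIT), or from the left or the right hippocampus alone (left separate and right separate), and these 3 preparations are called arms here. The labels give 60 samples, with 4 per antibody and condition in SIT and 3 in each separate arm, of which 20 were IgG.

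One list per mark, condition and arm was analysed, and the lists do not separate samples, so no value has a replicate error. They give positions, with no height and no read count, and the depth behind them is unknown. The H4K8ac lists held 12168 to 38136 peaks over 24.5148 to 80.2619 Mb. The exercised list was the longer in SIT, with 1.73 times the bases of the sedentary list, and the shorter in the separate arms, with 0.391 (left) and 0.437 (right) times the bases. These genome ratios are the background for every ratio below, and list length and exercise cannot be told apart in them. Per the methods, some exercised H4K8ac libraries, most of them from the separate arms, were left out for a high false discovery rate, so the exercised lists, above all the separate ones, may rest on fewer libraries than the labels give. The sedentary SIT list may do so too, since the study describes its SIT peaks with fewer sedentary mice than the labels do. Promoter H4K8ac peaks were listed at 2 to 4 of 5 excitatory neuron markers and at 0 of 5 interneuron markers in each list. Of 3 markers each, promoter H4K8ac was listed at 0 or 1 for astrocytes, at 1 for oligodendrocytes (Mbp in all 6 lists) and at 1 or 2 for microglia (P2ry12 in all 6). Promoter H3K27me3 was listed at 0 of 5 excitatory and 2 to 4 of 5 interneuron markers in each H3K27me3 list, at 1 of 3 astrocyte (Aqp4) and 1 of 3 oligodendrocyte markers (Olig2), and at 0 or 1 of 3 microglial markers (Cx3cr1). The part of other cell types in the results at the MEF2 loci was not tested.

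The 2 widest stretches of the Mef2c window that lay inside peaks of all 6 H4K8ac lists were far beyond the gene. The first is at the 5′ end of the long noncoding RNA gene Gm17750, with the centre of its common stretch 392.5 kb past the end of Mef2c, and the second lies in the gene desert before Ccnh, 1088.6 kb past that end. These were the widest stretches shared by all lists anywhere in the genome, and the reference sequence of 300 bases at the centre of the second is shown for that reason (chr13:84755547-84755846, plus strand, RefSeq GRCm38.p6). Capitals in the DNA sequences mark matches to the MEF2 consensus, a motif that reads the same on both strands, and this stretch holds none.
Domain before Ccnh: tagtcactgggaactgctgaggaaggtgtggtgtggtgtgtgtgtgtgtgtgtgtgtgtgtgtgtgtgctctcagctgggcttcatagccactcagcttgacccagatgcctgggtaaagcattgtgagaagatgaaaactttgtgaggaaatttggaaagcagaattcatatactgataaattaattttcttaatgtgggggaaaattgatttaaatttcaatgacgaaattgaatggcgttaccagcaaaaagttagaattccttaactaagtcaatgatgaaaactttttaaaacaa

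The bases before the first Mef2c start site (chr13:83503784-83504016, plus strand) and before the Mef2d start site (chr3:88142122-88142365, plus strand) are shown, since they had the lowest and the highest GC of the 5 member promoters examined. GC made up 33.6% of the 250 bases before this Mef2c start, which hold 1 CpG, against 73.2% and 19 CpGs before Mef2d, and the median over 32851 promoters was 52.4%. The other Mef2c promoters had 44.8 and 49.6% GC with 6 and 4 CpGs, and that of Mef2a had 61.6% and 21 CpGs.
Mef2c promoter: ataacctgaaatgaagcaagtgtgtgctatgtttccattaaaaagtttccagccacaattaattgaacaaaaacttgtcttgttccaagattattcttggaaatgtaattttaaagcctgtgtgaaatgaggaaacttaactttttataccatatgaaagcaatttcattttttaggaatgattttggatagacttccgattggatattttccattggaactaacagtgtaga
Mef2d promoter: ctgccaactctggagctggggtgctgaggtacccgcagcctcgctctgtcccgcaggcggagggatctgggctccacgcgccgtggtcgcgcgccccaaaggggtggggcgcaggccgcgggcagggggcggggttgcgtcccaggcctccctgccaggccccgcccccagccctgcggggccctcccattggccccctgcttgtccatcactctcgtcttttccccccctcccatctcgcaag

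Of the 3 genes, Mef2a alone had a match to the MEF2 consensus within its promoter window of 300 bases, as did 3.19% of 32851 promoters. The match begins 2 bases before the start site (shown with 10 bases on either side, chr7:67372841-67372870, minus strand). The 3 promoters of Mef2c and that of Mef2d held no match to these letters.
Mef2a start site: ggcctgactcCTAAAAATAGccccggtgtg

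The regions in all 6 H4K8ac lists that lay nearest to each gene are shown with the same marking. They are in the first intron of Mef2c (chr13:83518851-83519150), before Mef2a within the noncoding gene Gm33926 of GENCODE (chr7:67442956-67443255) and in the first intron of Mef2d (chr3:88151870-88152169), each on the plus strand. The Mef2d stretch shown is where peaks of 5 lists coincide, since no base of that region was in all 6. The Mef2c stretch holds 1 MEF2 match and the other two hold none. Over the centres of all 3807 regions in all 6 lists, 5.91% held a match, and over the 20 of the Mef2c window 3 did (15.0%). Over whole regions the density was 4.16 matches per 10 kb in the window and 2.26 in the genome, where GC made up 38.0 and 44.3% of the bases. The region at the third Mef2c start site held 12 matches in 10273 bp, or 11.7 per 10 kb, the highest of the 20 window regions. The other regions assigned to Mef2c in all 6 lists held 2.22, 0.0 and 2.95 per 10 kb. The part of base composition in these densities was not tested, and a match is a description of letters, not a bound site.
Mef2c intron: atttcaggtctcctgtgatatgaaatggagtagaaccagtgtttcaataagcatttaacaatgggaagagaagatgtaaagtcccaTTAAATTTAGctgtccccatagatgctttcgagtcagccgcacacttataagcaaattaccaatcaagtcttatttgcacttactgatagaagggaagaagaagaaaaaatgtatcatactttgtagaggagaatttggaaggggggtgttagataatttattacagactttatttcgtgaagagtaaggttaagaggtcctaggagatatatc
Mef2a upstream region: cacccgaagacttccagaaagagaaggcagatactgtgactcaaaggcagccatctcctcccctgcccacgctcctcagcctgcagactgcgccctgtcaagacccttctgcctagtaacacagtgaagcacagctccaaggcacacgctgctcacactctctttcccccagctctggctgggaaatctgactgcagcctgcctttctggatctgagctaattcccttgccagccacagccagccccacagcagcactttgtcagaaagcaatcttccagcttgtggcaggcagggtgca
Mef2d intron: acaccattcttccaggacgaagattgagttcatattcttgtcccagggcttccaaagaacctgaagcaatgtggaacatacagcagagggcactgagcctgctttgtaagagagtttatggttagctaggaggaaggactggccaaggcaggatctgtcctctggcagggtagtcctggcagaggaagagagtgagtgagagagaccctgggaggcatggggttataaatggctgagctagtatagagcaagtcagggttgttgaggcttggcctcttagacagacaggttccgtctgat

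Over the whole window, H4K8ac peaks covered more DNA than in nearly all fixed tiles of that size in the genome. The window held 80 peaks over 332.27 kb in the exercised SIT list and 88 over 210.78 kb in the sedentary SIT list. In the left separate arm the values were 42 peaks over 173.64 kb (exercised) and 72 over 289.91 kb (sedentary), and in the right separate arm 48 over 149.83 kb and 55 over 258.48 kb. Covered length thus followed list length, with the exercised list above the sedentary in SIT and below it in both separate arms. When the genome was cut into 1187 tiles of 2.2 Mb from the start of each chromosome, the median tile held 14.5 to 55.94 kb. In each list 2 to 5 tiles exceeded the window, or 0.168 to 0.421% of tiles. The window was chosen by its peaks in these lists and the tile edges were not, so its high place among tiles is no test. By number of peaks rather than bases, 11 to 63 tiles exceeded the window, an ordering chosen after seeing the data. These tiles were aligned to the window, and only the 1045 to 1141 that held a peak were counted. More tiles thus exceeded the window by number than by bases, though the sets of tiles were unlike.

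**Figure D1:**
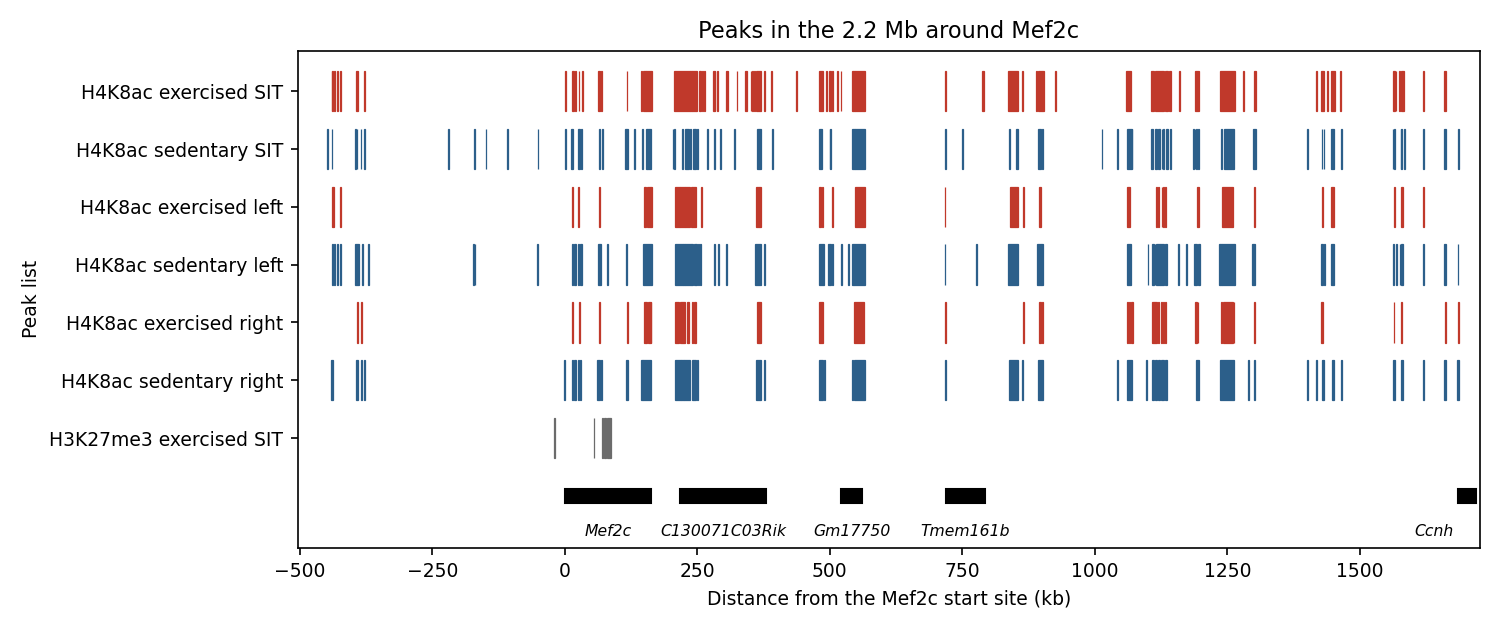
H4K8ac peaks of the 6 lists (red, exercised; blue, sedentary) and H3K27me3 peaks of the exercised SIT list (grey) by distance in kb from the first Mef2c start site, with each bar drawn from peak start to peak end and genes as black bars below. The same wide H4K8ac blocks recur in all 6 lists past the end of Mef2c, and the 5 H3K27me3 peaks lie within or just before the gene.

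The coverage of the window was spread unevenly around Mef2c. The 504.0 kb before the gene were 0.628 to 4.2% covered, the 163.0 kb of the gene 9.03 to 22.3%, and the 555.2 kb from its end to Tmem161b 10.6 to 22.4%. Tmem161b, a gene of 73.8 kb that encodes a transmembrane protein, was 0.0 to 4.28% covered, while the 903.9 kb after it were 7.51 to 17.2% covered. In each of the 6 lists, both stretches on either side of Tmem161b exceeded Tmem161b itself and the stretch before Mef2c.

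Most peaks in the window were assigned by the authors' annotation to genes other than Mef2c. The assignment was not always to the nearest start site. Peaks between 83108020 and 83134895 were assigned to Mef2c but lay in the noncoding gene 2310067P03Rik (chr13:83065457-83194347, plus strand), whose start was nearer. Tmem161b was assigned 95 H4K8ac peaks over the 6 lists, Mef2c 82, and Ccnh, which encodes a cyclin of the CDK-activating kinase, 77. Mir9-2, which encodes the neural microRNA miR-9, was assigned 37, and the noncoding genes Gm17750, 2810049E08Rik, C130071C03Rik and A230107N01Rik 31, 22, 20 and 6. Mir3961, a microRNA gene outside the window, was assigned 15. Distal intergenic peaks made up 187 of the 385 (48.6%), introns 88 and promoters 78. Between 41.2 and 52.1% of the window's peaks lay over 100 kb from their assigned start site, against 16.7 to 22.1% in the whole lists, so the assigned gene is a weak label there.

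At the ends of the window, the sedentary SIT list had the last peak before it (2272 bp, 22.8 kb outside) and the first within it (1657 bp, 55.7 kb inside), both assigned to Mir3961. The last peak inside was 3452 bp in the sedentary right list, 8.6 kb from the end, and the first outside was 1521 bp in the exercised SIT list, 2.4 kb beyond it. Both were assigned to Ccnh, so the window ends within a run of peaks there.

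Merging the 6 H4K8ac lists where peaks overlapped gave 104 regions in the window, of which 20 were in all 6 lists. That is 19.2%, against 5.99% of the 63514 regions of the genome. One region of the window was in the 3 sedentary lists alone (0.962%, against 0.847% of the genome), and 0 were in the 3 exercised lists alone (0.104% of the genome). Regions in exercised lists only, in any number, made up 18.3% in the window and 19.3% in the genome, and regions in sedentary lists only 34.6 and 37.6%. The share of regions particular to a condition was thus near its background, while the share in all lists was above it. The median peak was wider in the window than in the whole list in each of the 6 lists, at 1480.5 to 2890.0 bp against 1265.0 to 1880.0 bp, and the part of width in the share was not tested.

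The Gm17750 domain ran over 25075 bp (chr13:84045545-84070619) and its stretch common to all 6 lists over 16419 bp. The widest peak there was 18852 bp in the exercised SIT list and 18946 bp in the sedentary SIT list. It was 18824 and 20398 bp in the exercised and sedentary left lists, and 17606 and 19232 bp in the exercised and sedentary right lists. These widths lay within 17606 to 20398 bp in all lists, exercised and sedentary. The sedentary SIT peak was the widest of all 30358 peaks in its list, and in the other lists the rank was 2 to 19.

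The domain before Ccnh ran over 28219 bp (chr13:84739530-84767748), with 16396 bp common to all 6 lists. It began 443.4 kb after the end of Tmem161b and ended 421.7 kb before the start of Ccnh, the gene to which its peaks were assigned. Its widest peak was 26891 bp in the exercised SIT list, 16396 in the sedentary SIT, 21177 in the exercised left, 21476 in the sedentary left, 19372 in the exercised right and 25060 in the sedentary right list. The exercised right peak was the widest of 13715 in its list, and the ranks in the other lists were 2 to 5. A stretch common to all 6 lists was found in 3042 regions of the genome, with a median of 1056.0 bp, and these domains held the widest and the next widest of them. Of the 100 widest common stretches, 6 lay in the Mef2c window.

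**Figure D2:**
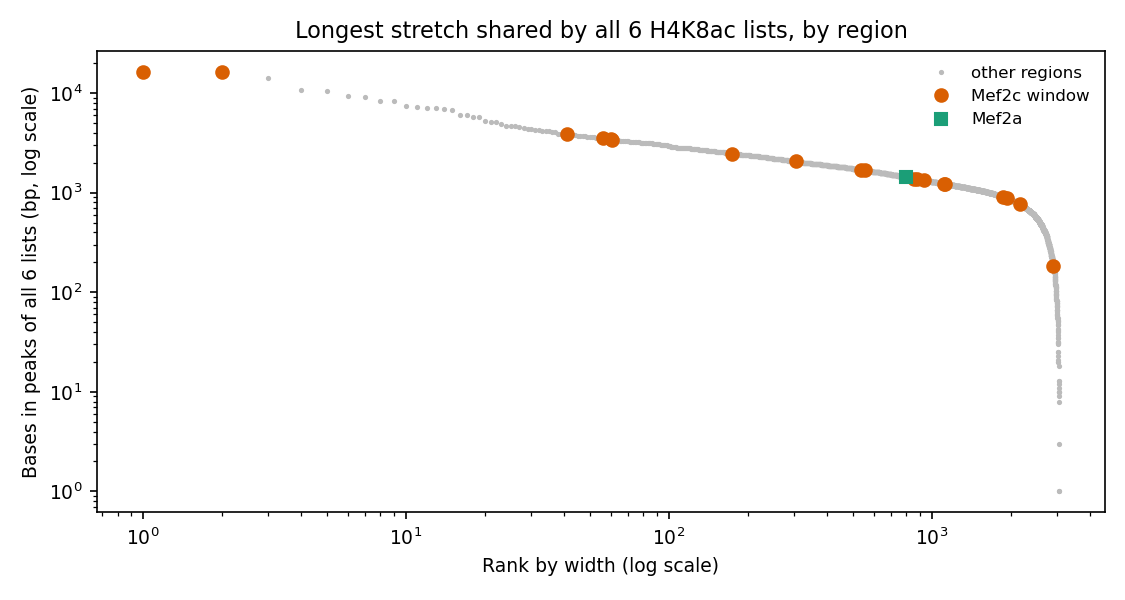
Width in bp of the stretch covered by peaks of all 6 H4K8ac lists, against its rank over 3042 regions, both on log scales, with regions of the Mef2c window in orange and the region before Mef2a in green. Ranks 1 and 2, at 16419 and 16396 bp, both lie in the Mef2c window, while its other 17 stretches are spread from rank 41 to 2900.

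The domain around Mir9-2 was wide but less regular. It ran over 33165 bp (chr13:83710762-83743926) along the start of the noncoding gene C130071C03Rik, and its common stretch was 1711 bp. Peaks covered 32197 bp of it in the exercised SIT list and 10617 bp in the sedentary SIT list, and 20735 to 29466 bp in the other lists. The exercised SIT list held there its widest peak of the window, 28791 bp and the second widest of that list, where the widest sedentary SIT peak was 3370 bp. The microRNA hairpin lay inside a peak in 5 lists and outside in the sedentary SIT list. The mature miR-9-5p encoded there is shown with its seed (bases 2 to 8) in capitals (chr13:83738821-83738843, plus strand).
mmu-miR-9-5p: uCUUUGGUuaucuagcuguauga

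Mef2c itself (chr13:83504034-83667080, plus strand, ENSMUSG00000005583) was assigned H4K8ac peaks in every list. The lists held 14 peaks of 43181 bp in all in exercised SIT and 23 of 40082 bp in sedentary SIT. They held 8 of 15565 bp and 14 of 47802 bp in the exercised and sedentary left lists, and 10 of 23380 bp and 13 of 44838 bp in the right lists. The exercised list thus held fewer assigned peaks in all 3 arms, including SIT, where it was the longer list. Some of these lie far before the gene, and over the gene body or the 3 kb before it the exercised and sedentary lists held 12 and 14 peaks in SIT, 8 and 8 in left and 8 and 10 in right. Exercised over sedentary, the summed width was 1.08 in SIT, 0.326 in left and 0.521 in right, and the log2 ratio minus that of the genome averaged -0.23 ± 0.47 (SD, 3 arms). With the widest 50% of peaks the left ratio was 0.176. The mean is smaller than the spread between arms. Among genes with a peak, Mef2c ranked 111 to 304 by summed width in lists of 5101 to 10739 genes, where the median gene had 1 or 2 peaks.

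**Figure D3:**
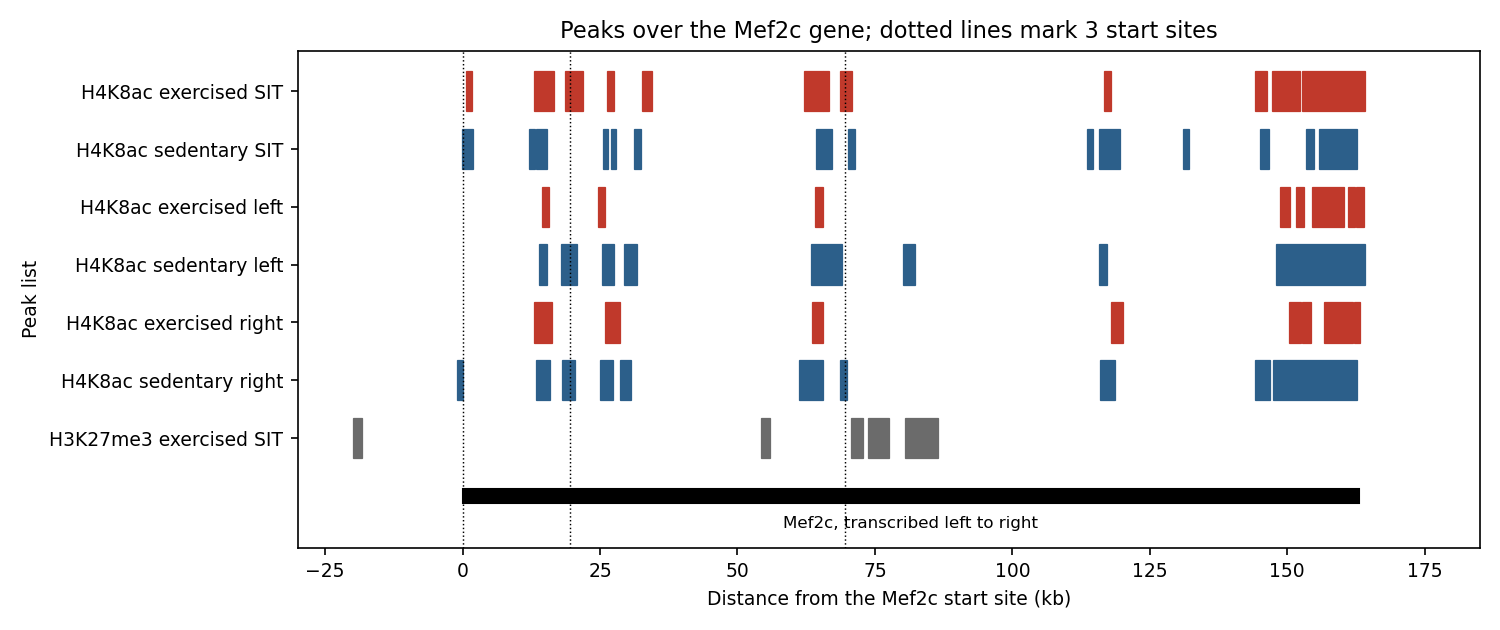
Peaks over Mef2c (black bar) by distance in kb from its first start site, for the 6 H4K8ac lists (red, exercised; blue, sedentary) and the exercised SIT H3K27me3 list (grey), with dotted lines at 3 start sites. The block at the end of the gene is present in all 6 H4K8ac lists, and the H3K27me3 peaks from 70.6 to 86.5 kb lie where few H4K8ac peaks were listed.

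The start sites of Mef2c were covered in some lists only. The first (83504034) lay inside an H4K8ac peak in the sedentary SIT and sedentary right lists, and 702 bp from one in the exercised SIT list. In the other 3 lists the nearest peak was 12912 to 14515 bp away. The second (83523656) lay inside a peak in exercised SIT, sedentary left and sedentary right, and the third (83573607) in exercised SIT and sedentary right. The exercised left and right lists had none of the 3 start sites inside a peak, and these are the 2 shortest lists.

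Regions of Mef2c in all 6 lists lay in its first intron (chr13:83516112-83520608), beside an inner start site (chr13:83528595-83532604), around the third start site (chr13:83565215-83575487) and at its 3′ end (chr13:83651238-83668210). No base of the region beside the inner start site was in all 6 lists, and at most 5 coincided there. The 3′ domain of 16973 bp reached 1.13 kb past the gene. It was covered for 97.3% in exercised SIT and 49.4% in sedentary SIT, 68.2 and 95.3% in the exercised and sedentary left lists, and 59.9 and 90.3% in the right lists. The order of the conditions there followed list length in each arm. In the sedentary left list it was a single peak of 16176 bp, rank 13 of 36425 by width, and in the sedentary right list one of 15321 bp, rank 19 of 25159.

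The one region of the window in the 3 sedentary lists alone was also in Mef2c, within the gene (chr13:83532647-83536533). No base of it was in all 3 lists. Its sedentary right and sedentary SIT peaks did not overlap and were joined by the sedentary left peak. The region covered 1291 bp in sedentary SIT, 2330 in sedentary left and 2023 in sedentary right, and 0 in the exercised lists. Exercised peaks lay directly on either side without overlapping it, in the right list before it (chr13:83530030-83532604) and in the SIT list after it (chr13:83536729-83538451).

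H3K27me3 was listed at Mef2c in the exercised SIT list alone. Its 5 peaks summed to 15318 bp. They were 1641 bp before the gene (chr13:83484069-83485709), 1592 bp at 54.3 kb after the first start site, and 2230, 3886 and 5969 bp between 70.6 and 86.5 kb after it, just past the third start site. The sedentary SIT list and the 4 separate lists had none in the window, and their nearest H3K27me3 peaks lay 1868994 to 1870435 bp from the first Mef2c start site and were assigned to Adgrv1. In the SIT arm, 41.4% of genes with an H3K27me3 peak in either list had it in the exercised list alone, as Mef2c did, 57.5% had it in both and 1.02% in the sedentary list alone, so this status was common there. The exercised SIT list was the longest H3K27me3 list, and 3 of the 5 peaks were narrower than its median of 3066.0 bp.

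The marks were mostly apart at Mef2c. Of the 5 H3K27me3 peaks, 1 overlapped H4K8ac in the same condition and arm, the 2230 bp peak, by 219 bp, and the sedentary SIT H4K8ac list overlapped it by 809 bp. The widest H3K27me3 peak overlapped H4K8ac in 1 list of the 6, and the remaining 3 in none. In every list the window was poor in H3K27me3, as 73.0 to 85.4% of tiles held more.

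Mef2a (chr7:67231163-67372858, minus strand, ENSMUSG00000030557), which is expressed broadly, had few peaks. The lists held 2 peaks of 5590 bp in all in exercised SIT and 2 of 3204 bp in sedentary SIT, 3 of 6415 bp and 4 of 7115 bp in the exercised and sedentary left lists, and 2 of 3957 bp and 3 of 6329 bp in the right lists. No peak assigned to Mef2a lay within its body, and peaks at its 3′ end in exercised SIT (1528 bp within the gene) and sedentary left were assigned to the neighbour Lysmd4. A promoter peak of 1603 to 1844 bp ended 67 to 252 bp before the start site in all 4 separate lists, exercised and sedentary. It was absent from both SIT lists, whose nearest peaks lay 47811 and 69321 bp away. Exercised and sedentary lists of the same arm thus did not differ in whether this peak was listed.

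The place at Mef2a in all 6 lists was upstream, with its common stretch of 1429 bp centred 70.2 kb before the start site, at the 5′ end of Gm33926 (chr7:67440865-67446478). It covered 3968 and 3204 bp in the exercised and sedentary SIT lists, 3259 and 4184 bp in the left and 2354 and 2317 bp in the right lists. These widths overlapped between the conditions. Exercised over sedentary, the summed width of Mef2a peaks was 1.74 in SIT, 0.902 in left and 0.625 in right, and relative to the genome the log2 ratio averaged 0.58 ± 0.60 (SD, 3 arms), within the spread between arms. Counting instead the bases covered over the gene body or the 3 kb before it, whatever gene the peaks were assigned to, the left ratio was 0.379. This was below the 0.391 of the genome.

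Mef2d (chr3:88142372-88172086, plus strand, ENSMUSG00000001419), which encodes an abundant neuronal MEF2 protein, varied most between lists. The lists held 4 peaks of 11979 bp in exercised SIT and 1 of 1439 bp in sedentary SIT, 3 of 7321 bp and 7 of 13155 bp in the exercised and sedentary left lists, and 3 of 5362 bp and 3 of 7334 bp in the right lists. The start site lay inside a peak in exercised SIT alone, in a peak of 6130 bp. It was 288 and 576 bp from a peak in the left lists, 2566 and 1818 bp in the right lists and 5874 bp in sedentary SIT. The region before and around the start (chr3:88136989-88146593) was in 5 lists and absent from sedentary SIT.

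The first intron of Mef2d held a region in all 6 lists (chr3:88147770-88152879), though no base of it was in all of them. It covered 2516 and 1439 bp in the exercised and sedentary SIT lists, 2178 and 3910 bp in the left and 2544 and 3776 bp in the right lists. Exercised over sedentary, the summed width of Mef2d peaks was 8.32 in SIT, 0.557 in left and 0.731 in right. Relative to the genome the log2 ratio was 0.51 to 2.27, with a mean of 1.17 ± 0.96 (SD, 3 arms). It was above the genome in 3 of 3 arms, and so was that of Mef2a, at 0.01 to 1.2. The share of all genes above the genome in 3 of 3 arms was not computed. Counting instead the bases covered over the gene body or the 3 kb before it, the right ratio of Mef2d was 0.448, near the 0.437 of the genome. The same 3 peaks were counted in each right list, but bases beyond that edge were left out. The largest value rests on the sedentary SIT list, which held a single Mef2d peak.

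**Figure D4:**
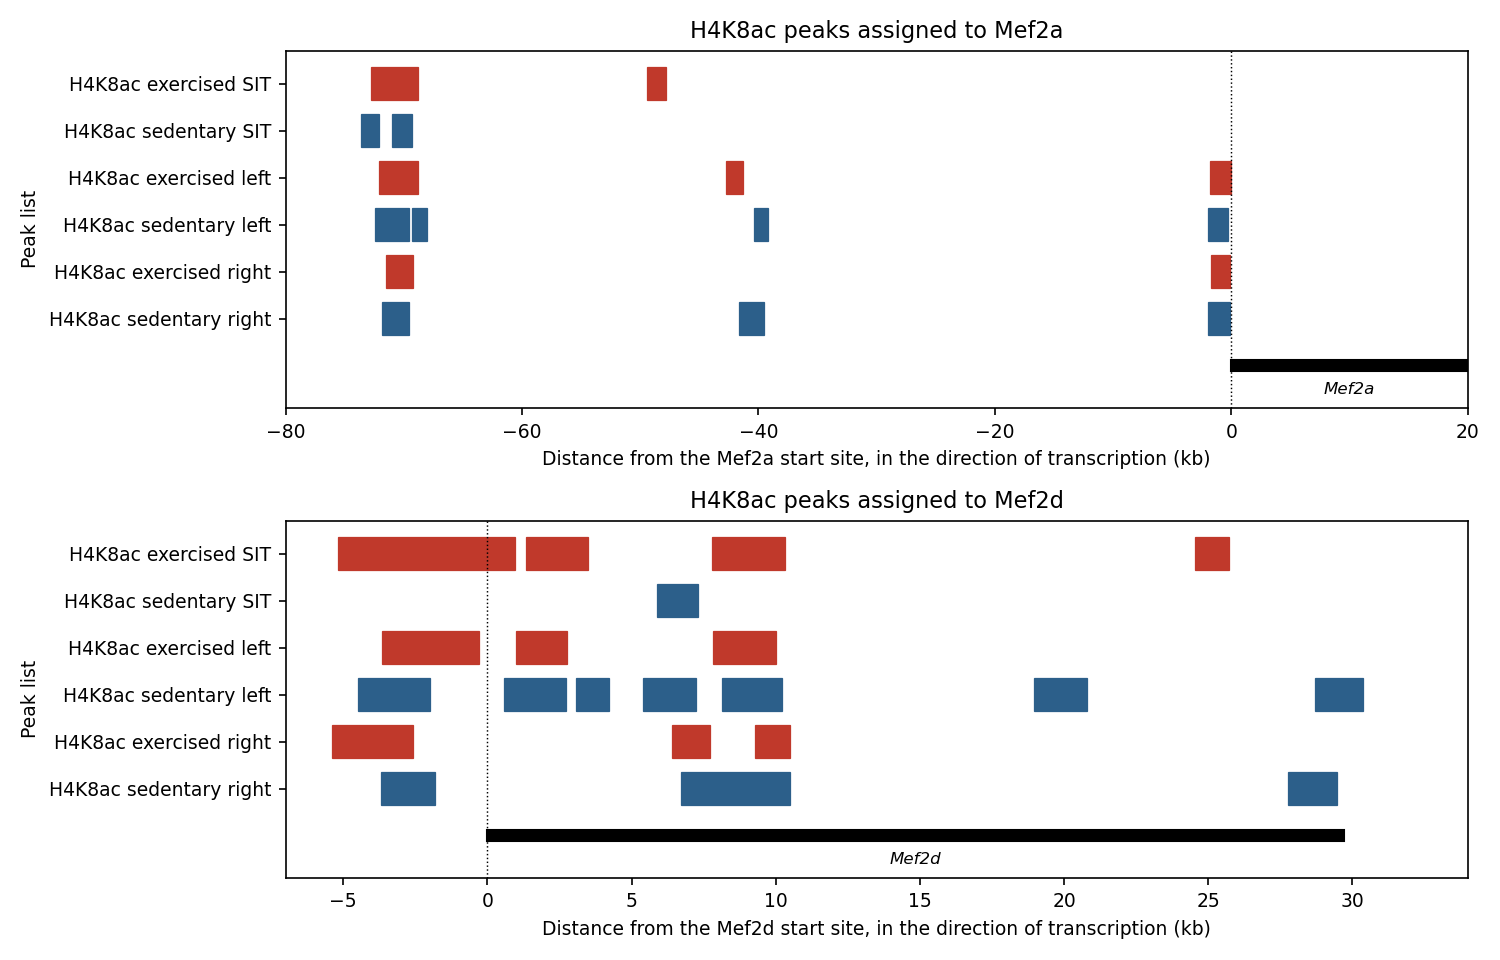
H4K8ac peaks assigned to Mef2a (top) and Mef2d (bottom) by distance in kb from the start site in the direction of transcription, in the 6 lists (red, exercised; blue, sedentary), with the gene as a black bar. The Mef2a promoter peak is in the 4 separate lists and in neither SIT list, and the sedentary SIT list holds a single Mef2d peak.

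By presence of any peak, Mef2a, Mef2c and Mef2d had H4K8ac in both conditions of all 3 arms. Genes with a peak in either list had one in both in 62.4% of cases in SIT, 44.5% in left and 54.1% in right. With promoter peaks alone, Mef2d was listed in the exercised list only in SIT, as 43.7% of genes with a promoter peak in either SIT list were, and Mef2a in neither SIT list. No H3K27me3 peak was assigned to Mef2a or Mef2d in any list. The nearest lay 79.9 to 80.8 kb from Mef2d, assigned to Rhbg, and 417330 to 519938 bp from the start site of Mef2a.

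Across arms, exercised over sedentary covered bases in the Mef2c window were 1.58, 0.599 and 0.58 in SIT, left and right. Against the genome, the log2 difference was -0.13, 0.61 and 0.41, with a mean of 0.30 ± 0.38 (SD, 3 arms), within the spread between arms. Per Mb of peaks in the list, the window took 4140 and 4540 bp in the exercised and sedentary SIT lists, 6730 and 4400 in the left and 6110 and 4610 in the right lists. The 2 highest shares were in the 2 shortest lists. When each arm's lists were cut to equal numbers of their widest peaks, the window ratio over the genome ratio in the left arm went from 1.53 to 0.949, that in the right arm from 1.33 to 1.01 and that in SIT from 0.911 to 0.976. This cut changes list length and the mix of widths together.

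**Figure D5:**
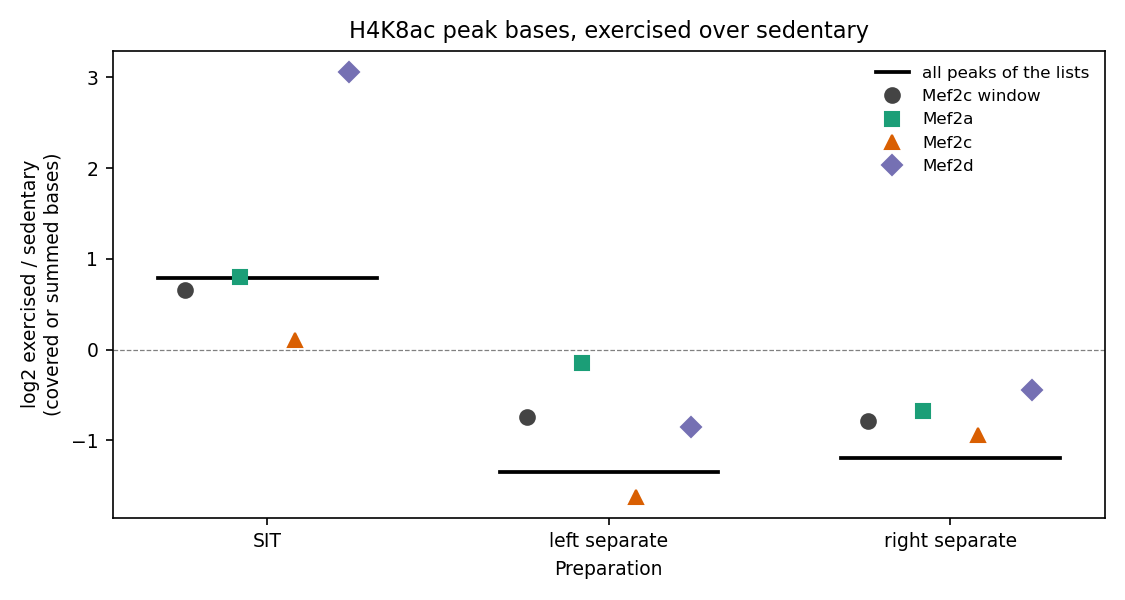
Log2 of exercised over sedentary H4K8ac bases in the Mef2c window (covered bases) and in peaks assigned to each gene (summed width), by arm, with a black line for all peaks of the lists. Points lie above 0 in SIT and below it in the separate arms, as the genome line does, with Mef2d in SIT at 3.06 the farthest from its line.

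A list of 29 genes was examined by role, made up of genes that regulate MEF2 or respond to it and the paralog Mef2b. Of these, 25 had an H4K8ac peak in at least 1 list and 11 had one in all 6, while 24.1% of the 13585 genes with a peak in any list had one in all 6. The 11 were the calcineurin subunits Ppp3ca and Ppp3r1, the kinases Camk2a and Prkd1, the repressors Cabin1, Hdac4 and Hdac9, the coactivator Ncoa2, and the MEF2 targets Bdnf, Jun and Nr4a1. Prkd1, Ppp3ca and Hdac9 had the most peaks, with 229, 208 and 168 over the 6 lists. The acetyltransferase genes Crebbp and Ep300 and the deacetylase gene Hdac5 were among those with none. Mef2b had 1 peak in exercised SIT and 1 in sedentary right, and is counted among the genes in 1 list alone in both arms.

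Between conditions, more of these genes were in the longer list alone than in the shorter list alone in each arm. In SIT, 25 of the 29 had H4K8ac in either list, 7 in the exercised list alone and 2 in the sedentary list alone, where 27.5 and 10.1% of all genes with a peak in either list did. In left, 20 had it, 1 in the exercised and 4 in the sedentary list alone, where 3.58 and 51.9% of all such genes did. In right, 18 had it, 2 in the exercised and 5 in the sedentary list alone, where 9.14 and 36.7% of all such genes did. With equal numbers of the widest peaks in each arm, the counts were 6 in the exercised and 1 in the sedentary list alone in left, and 3 and 1 in right. At that setting the numbers over all genes also moved, to 1607 and 1613 of 6714 genes in left and 1899 and 1639 of 7431 in right. Ube3a, a ubiquitin ligase gene, had 3 peaks in exercised SIT and 0 in sedentary SIT, but 0 in exercised left and 3 in sedentary left, and 0 and 1 in right. Arc, an activity-induced gene at synapses, had 3 peaks in exercised right and 0 in sedentary right, but 1 and 1 in SIT and 2 and 1 in left.

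For H3K27me3 in SIT, 4 of the 29 genes had a peak in either list, namely Hdac4, Ncoa2, Sik1 and Jun, and all 4 had it in the exercised list alone, as 41.4% of the 6539 genes with such a peak in either list did, against 1.02% in the sedentary list alone. In left 3, Hdac4, Sik1 and Jun, had it in both lists, as 72.4% of genes with a peak in either list did, while 18.5% had it in the exercised and 9.13% in the sedentary list alone. In right 2, Hdac4 and Jun, had it in the sedentary list alone, as 43.6% of such genes did, while 53.3% had it in both and 3.12% in the exercised list alone.

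The genes whose H4K8ac pattern was most like each member were found by Euclidean distance over the 6 lists, on log2 of summed width per Mb of peaks plus 1, among 13585 genes. For Mef2c they were Rapgef2, Bach2 and Klf12, at distances of 0.42, 0.42 and 0.43. For Mef2a they were Krt9, Tmtc1 and Tbc1d19 at 0.58, 0.63 and 0.66, and for Mef2d Mtch2, Trpm1 and Hebp1 at 0.81, 0.84 and 0.87. All are descriptions over 6 lists.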

How the data were processed

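Lists of CUT&RUN-seq peaks were analysed, with groups taken from the labels. Per the methods, the authors aligned reads with Bowtie2 2.4.1, called peaks with SEACR (stringent, 0.01), annotated them with ChIPseeker 1.8.6 on mm10 with promoters within 3 kb of a start site, and left out some exercised H4K8ac libraries, most from the separate arms, for a high false discovery rate. How libraries were combined is not given in the sources used here. The deposited values are positions, widths and distances in bp, with no count, signal or p-value, so no test was run and no SD over samples exists. Covered bases, summed widths, merged regions (overlap of at least 1 bp) and the MEF2 consensus on both strands were computed here. The members and gene lists were chosen with earlier results of these data known. Genes named were the members, Mef2b, genes assigned in the window, the pathway list, and the 3 most like each member. Gene positions came from GENCODE M21 and sequences from RefSeq GRCm38.p6. IgG was not used here, and some items are not reported here. On simulated peaks, the overlap code gave the known answer in 20 of 20 sets. Alternatives were the widest 50% of peaks, equal numbers, promoter or non-distal peaks, gene body, reciprocal 50% overlap and, added after seeing the data, leaving out the shortest list and ordering tiles by number. Python 3.11.15, numpy 2.4.6, pandas 2.3.3 and matplotlib 3.10.9 were used.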

Additional observations from a re-analysis of the deposited data

Results flagged for a closer look

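Exercised over sedentary H4K8ac bases went one way in SIT and the other in both separate arms at each locus. In the Mef2c window the ratio was 1.58 in SIT, 0.599 in left and 0.58 in right. At Mef2a it was 1.74, 0.902 and 0.625, at Mef2c 1.08, 0.326 and 0.521, and at Mef2d 8.32, 0.557 and 0.731. All peaks of the lists moved the same way, at 1.73, 0.391 and 0.437. With 1 list per condition and arm, the difference between arms was not tested, and list length, preparation and exercise cannot be told apart.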

How the results depend on the processing

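Across the alternatives, 66 values stayed within 1.5 times and in the same direction, 26 moved further and 1 reversed. With equal numbers of widest peaks, the left window ratio over the genome ratio went from 1.53 to 0.949. The H3K27me3 bases of the window in exercised SIT went from 15.32 to 9.86 kb with the widest 50% of peaks and with equal numbers. With promoter peaks alone, or with peaks over the gene body, 1 member in 1 arm (Mef2d or Mef2a in SIT) was in the exercised list alone for H4K8ac in place of 0. In SIT, 43.7% of genes with a promoter peak were in the exercised list alone, and no such share was computed for gene bodies. Peaks over the 6 lists went from 16 to 10 (widest 50%) or 6 (gene body) for Mef2a and from 82 to 50 (widest 50%) for Mef2c. Counting bases covered over the gene body in place of summed widths took the Mef2a ratio in left from 0.902 to 0.379. It took the Mef2d ratio in right from 0.731 to 0.448. With the widest 50% of peaks, the ratio of summed widths for Mef2c in left went from 0.326 to 0.176. With a reciprocal overlap of 50%, regions in all 6 lists were 6.67% of the window and 2.48% of the genome, against 19.2 and 5.99%. Without the shortest list, 21.9 and 8.83% were in the other 5. Among the 29 pathway genes, promoter peaks alone gave 5 for 2 in the sedentary SIT list alone, 3 for 5 in the sedentary right list alone (12.6 and 45.1% of all genes with a promoter peak), and 6, 9 and 6 for 16, 15 and 11 in both lists in SIT, left and right, where 43.7, 31.1 and 41.7% of all genes with a promoter peak were in both. Equal numbers gave 6 for 1 (left) and 3 for 2 (right) in the exercised list alone, and 1 for 4 (left) and 1 for 5 (right) in the sedentary list alone, while over all genes these were 1607 and 1613 of 6714 (left) and 1899 and 1639 of 7431 (right) in the exercised and the sedentary list alone. The cause of the other changes was not tested.

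No paired analysis was possible because the lists do not separate the samples that share replicate numbers, and for the same reason no replicate was left out. Depth is unknown, so the absence of a peak does not show that the mark was absent.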
